A study of Rattus norvegicus with 4 samples.

Results

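The COP9 signalosome is a protein complex of the nucleus and cytoplasm, and the transcripts of its subunits are described here in rat alveolar macrophages. The genes are Gps1 and Cops2 to Cops8, with Cops7a and Cops7b as separate genes, 9 genes in all of 16581 named genes on the array. All of their probes were taken by matching the accession of each probe to rat gene symbols, which gave 13 of 45598 gene probes. Cops2 was chosen by its spread between the replicate arrays, so that spread is a description and is not tested. The cells were of the line NR8383, derived from lung lavage of a normal rat and grown for 20 passages. All cultures had received titanium dioxide particles of type NM105 (p25, anatase and rutile) at 3 cm2 of particle surface per cm2 of culture for 4 h. There were 4 such cultures (replicates 1 to 4), each on 1 single-colour array. Cultures without particles were not analysed here, so no value below is a response to the particles. The labels call the cultures biological replicates and do not say how far they were kept apart.

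The signalosome removes the small ubiquitin-like protein NEDD8 from cullins, the scaffolds of the largest family of ubiquitin ligases. Cullins work in cycles of NEDD8 attachment and removal, which let one scaffold exchange its substrate receptors. In macrophages such ligases mark inhibitors of NF-κB and regulators of the antioxidant response for destruction. Cops5 carries the metal-dependent protease centre, and Cops6 is its catalytically inactive partner of the same fold. The other subunits share a PCI domain and build the frame that holds this pair and grips the cullin. Cops7a and Cops7b are paralogs, of which a complex holds one.

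The arrays differed in overall brightness, and the reference used for scaling, the 75th percentile of signal over probes detected on all 4 arrays, ran from 585 intensity units on replicate 2 to 1431 on replicate 1. The 99th percentile of the negative controls lay between 5.07 and 5.96 units. All 8 markers of macrophages chosen as a check of identity, among them Cd68, Csf1r and Itgam, were well above background on all 4 arrays. Of 17 measured markers of epithelium, fibroblasts, endothelium, T cells and B cells, 1, the endothelial gene Cdh5, was, and Col1a1, of fibroblasts, was on some arrays.

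Every signalosome gene gave clear signal. All 9 were well above background on all 4 arrays, by Agilent's call for each spot, against 35.2% of all named genes. Of their 13 probes, 11 passed on all 4 arrays, 1 on a single array and 1 on none. The brightest probe of Gps1 gave 7623, 3757, 4685 and 4983 intensity units on replicates 1 to 4. That of the catalytic subunit Cops5 gave 2648, 742, 1087 and 1199.8 units, and its partner Cops6 gave 5626, 2612, 3146 and 2911 units. Replicate 1 was thus the brightest array for each of these 3 genes, as it was for the scaling reference. The dimmest detected probes were those of Cops2, at 166, 31.6, 60.9 and 111 units, and of Cops7b, at 104, 39.9, 50.4 and 51.1 units. On its weakest array the Cops2 probe was still 5.77 times as bright as the 99th percentile of the negative controls, and that of Cops7b 7.28 times. Probes differ in their own brightness, so these values do not rank the subunits by abundance.

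**Figure D1:**
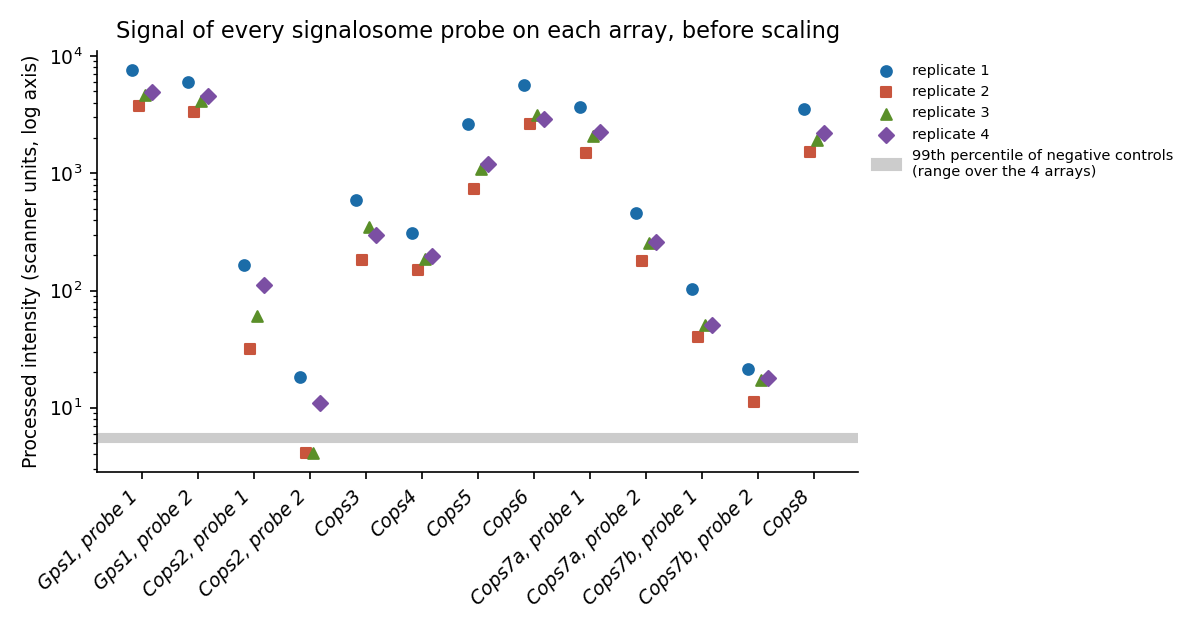
Processed intensity in scanner units (log axis) of all 13 signalosome probes, with 1 symbol for each replicate array and a grey band for the 99th percentile of negative controls over the 4 arrays. For genes with 2 probes, probe 1 is the brighter; the second probe of Cops2 falls under the band on replicates 2 and 3, and replicate 1 is the highest symbol for every probe.

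Levels below are log2 intensity minus the array's own reference, so they place 1 probe on different arrays. Cops2, which encodes the PCI subunit that contacts the cullin and its RING partner, was at −3.11, −4.21, −3.65 and −2.91 in the order of the replicates. Its mean was −3.47 ± 0.59 (SD, n = 4). Replicates 1 and 4 were high, replicate 2 was low, and the range was 2.47-fold. In RNA from a whole culture, fewer cells with a transcript and less of it in each cell cannot be told apart. The probe was printed at 2 spots, the only signalosome probe with more than 1. The spots gave levels of −3.14, −4.15, −3.72 and −2.65 at one position and −3.08, −4.26, −3.59 and −3.16 at the other. They differed by 0.50 on replicate 4, where the median difference over 625 detected probes with 2 spots was 0.083. Replicate 2 was lowest at both spots, while replicate 4 was highest at one and replicate 1 at the other, and the SD was 0.66 and 0.54 with each spot alone. The second Cops2 probe, matched to a predicted transcript, was well above background on replicate 1 only, with 18.3, 4.11, 4.10 and 10.9 intensity units. On replicates 2 and 3 it lay under the negative-control percentile, so it gives no level there and bears on no difference between arrays.

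The promoter of Cops2 is shown beside that of Cops8, since these genes had the widest and the narrowest spread of the 9 with the scaling used here. That order moved with the setting: Cops7b was narrower than Cops8 with scaling to all probes or to the median, Gps1 was with quantile or cyclic loess normalization, and Cops4 was wider than Cops2 after normexp correction. Both sequences are RefSeq windows of the GRCr8 assembly, from 250 bases before to 50 after the annotated start, for Cops2 chr3:133563444-133563743 on the minus strand and for Cops8 chr9:98654781-98655080 on the plus strand. Capitals mark matches, on either strand, to 6 short motifs: CGGAAG of ETS factors, CCAAT of NF-Y, GGGCGG of SP factors, TGACGTCA of CREB, GCGCATGCG of NRF1 and AAGATGGCG of YY1.
Cops2: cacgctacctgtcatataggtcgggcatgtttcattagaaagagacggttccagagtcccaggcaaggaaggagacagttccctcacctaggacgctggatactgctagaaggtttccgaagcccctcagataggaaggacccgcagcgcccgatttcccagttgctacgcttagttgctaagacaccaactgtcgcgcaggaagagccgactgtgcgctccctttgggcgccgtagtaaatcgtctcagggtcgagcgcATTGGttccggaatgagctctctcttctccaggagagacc
Cops8: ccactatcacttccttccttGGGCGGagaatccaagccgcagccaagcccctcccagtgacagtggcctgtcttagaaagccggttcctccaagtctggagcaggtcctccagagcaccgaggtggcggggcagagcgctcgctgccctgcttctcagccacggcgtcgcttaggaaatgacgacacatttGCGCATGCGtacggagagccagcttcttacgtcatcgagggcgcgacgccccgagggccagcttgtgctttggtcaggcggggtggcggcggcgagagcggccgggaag
The Cops2 window held 1 match, to CCAAT, a motif in 37.5% of the 33469 rat windows of this length. That of Cops8 held GGGCGG, found in 33.1% of windows, and GCGCATGCG, found in 1.52%. Windows were matched for 7 of the 9 genes, with 2 overlapping windows each for Gps1 and Cops7a. Their G and C content was 53% to 75%, against a median of 51.7% over all windows. Genes are counted with any of their windows and the shares are per window, so these are unlike measures. Among the 7 genes, CGGAAG occurred at Gps1, Cops3 and Cops7a and in 16.6% of all windows, and AAGATGGCG at Cops4 alone and in 1.73%. TGACGTCA was in none of the 7 and in 1.83% of all windows. CCAAT was also found at Cops4, Cops7a and Cops7b, and GGGCGG at Gps1, Cops4 and Cops7a. These are matches of letters, and no binding was measured.

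Of the catalytic pair, Cops5 had a lower SD than 2808 of the 5824 detected genes, and Cops6 than 4552, with the scaling used here. Cops5 was at 0.89, 0.34, 0.50 and 0.53, a mean of 0.57 ± 0.23 (SD, n = 4). Replicate 1 was the highest array for Cops5 in every scaling tried and was not after normexp background correction, where replicate 4 was. Cops6 was at 1.98, 2.16, 2.04 and 1.81, a mean of 1.99 ± 0.15 (SD, n = 4), with its highest value on replicate 2 and its lowest on replicate 4. The 2 partners thus had their extremes on different arrays, and each stayed within a 1.46-fold range.

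With this scaling the PCI subunits other than Cops2 and Cops3 had lower SDs than both genes of the catalytic pair. That order held with scaling to the median and with outlier spots kept. It did not hold with scaling to all probes, quantile or cyclic loess normalization, normexp correction or averaging over the detected probes of a gene. No difference between these classes of subunit is read from it. Gps1 was at 2.41, 2.68, 2.61 and 2.58, a mean of 2.57 ± 0.11 (SD, n = 4), lowest on replicate 1. Cops4, which reaches towards the cullin beside Cops2, was at −2.21, −1.97, −2.03 and −2.07, a mean of −2.07 ± 0.10 (SD, n = 4), also lowest on replicate 1. Cops3 was at −1.29, −1.68, −1.14 and −1.49, a mean of −1.40 ± 0.24 (SD, n = 4). It was highest on replicate 3 and lowest on replicate 2. Cops8, the small PCI subunit, was at 1.31, 1.39, 1.31 and 1.41, a mean of 1.36 ± 0.049 (SD, n = 4). Its 4 arrays lay within 1.07-fold of each other, and 5745 of the 5824 named genes with a probe detected on all 4 arrays had a higher SD. That SD was 0.13 with scaling to the 75th percentile of all probes and 0.097 with scaling to the median. The SD of Gps1 moved too, from 0.027 with cyclic loess normalization to 0.19 with scaling to all probes, and that of Cops4 reached 0.18 in the latter.

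The paralogs Cops7a and Cops7b were both present. Cops7a was at 1.35, 1.35, 1.45 and 1.45, a mean of 1.40 ± 0.055 (SD, n = 4), and Cops7b at −3.78, −3.87, −3.93 and −4.02, a mean of −3.90 ± 0.10 (SD, n = 4). Both kept within 1.18-fold over the arrays, Cops7b at a single spot of 39.9 to 104 intensity units. Levels of the 2 paralogs come from different probes and are not set against each other. The second probe of Cops7a is matched to another transcript of the gene. It was at −1.65, −1.72, −1.58 and −1.67, with an SD of 0.058, and the difference between both probes varied over the arrays by an SD of 0.054. The second probe of Cops7b, matched to the same accession as the first, was not well above background on any array. The second probe of Gps1, at 2.07, 2.51, 2.44 and 2.45, was lowest on replicate 1 as the first was. For genes with 2 detected probes, the SDs were 0.11 and 0.20 for Gps1 and 0.055 and 0.058 for Cops7a, the brighter probe first.

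**Figure D2:**
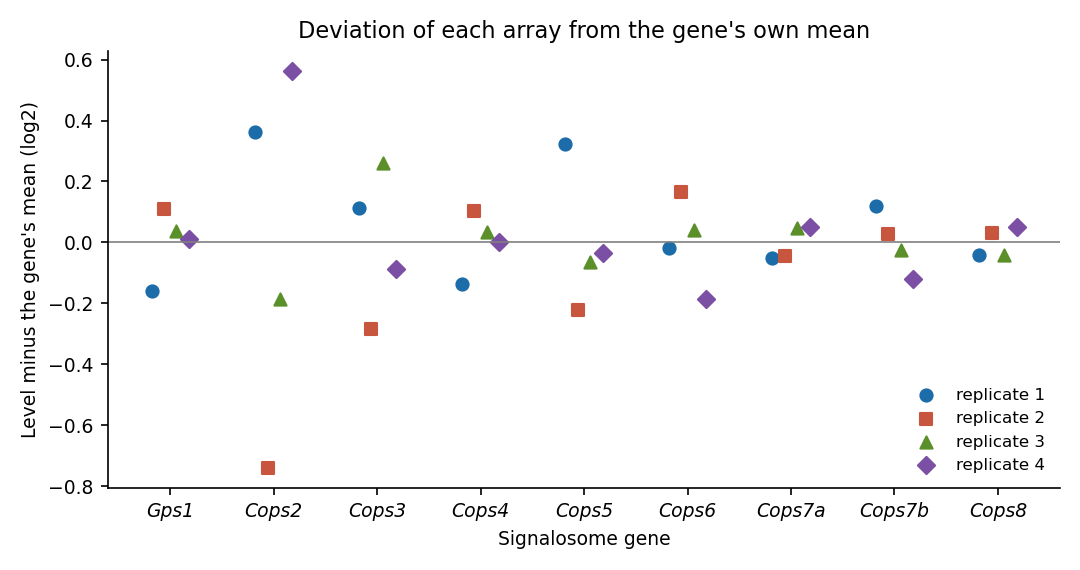
Level minus the gene's own mean (log2) for the 9 signalosome genes, 1 symbol per replicate array. Cops2 runs from −0.74 on replicate 2 to 0.56 on replicate 4, while the other 8 genes stay between −0.28 and 0.32.

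Cops3 and Cops5, like Cops2, lay above their own mean on replicate 1 and were lowest on replicate 2, by −0.28 and −0.22 from that mean against −0.74 for Cops2. Gps1, Cops4 and Cops6 were instead at their highest on replicate 2 (Gps1 on replicate 4 in quantile normalization). Between replicates 1 and 2, 5.6% of all detected genes differed at least 2-fold, and Cops2 was the only signalosome gene that did, by 2.15-fold. Between replicates 2 and 4 the share was 1.7%, and Cops2 was again the only one, by 2.47-fold. In the other 4 pairs of arrays no signalosome gene reached 2-fold.

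The SD over the 4 arrays had a median of 0.11 over the 9 genes and of 0.11 over the 8 without Cops2, against 0.23 over all 5824 detected genes. Of the 8, 6 lay under the median of all genes, and Cops3 at 0.24 and Cops5 at 0.23 lay just above it. Only Cops2 exceeded an SD of 0.5, as did 5.6% of all detected genes. It was chosen for this, and nothing is read from the count. An SD is wider where signal is low: the median was 0.30 in the 1456 genes with the lowest levels and 0.18 in the 1456 with the highest. Cops2 and Cops7b both belonged to the lowest 1456, of which 11.6% exceeded 0.5, and 5 signalosome genes belonged to the highest. The share of low signal in the spread of Cops2 was not tested. The SD of Cops2 was 0.20 after normexp correction, lower than the 0.27 of Cops4 in that setting. There the median over all genes was 0.18, and 2.87% of them exceeded 0.5. That setting starts from median signal, where the Cops2 spots read 82 to 221.5 units before background correction. It then adds 50 units to every signal. The shares of this offset and of the change of signal were not tested. Cops2 had an SD of 0.40 without replicate 2, and between 0.56 and 0.71 without each of the other replicates. The median SD of the 9 genes was 0.075 without replicate 1 (0.19 over all genes). It was 0.18 with scaling to all probes and 0.17 with scaling to the median, against 0.23 over all genes in both.

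**Figure D3:**
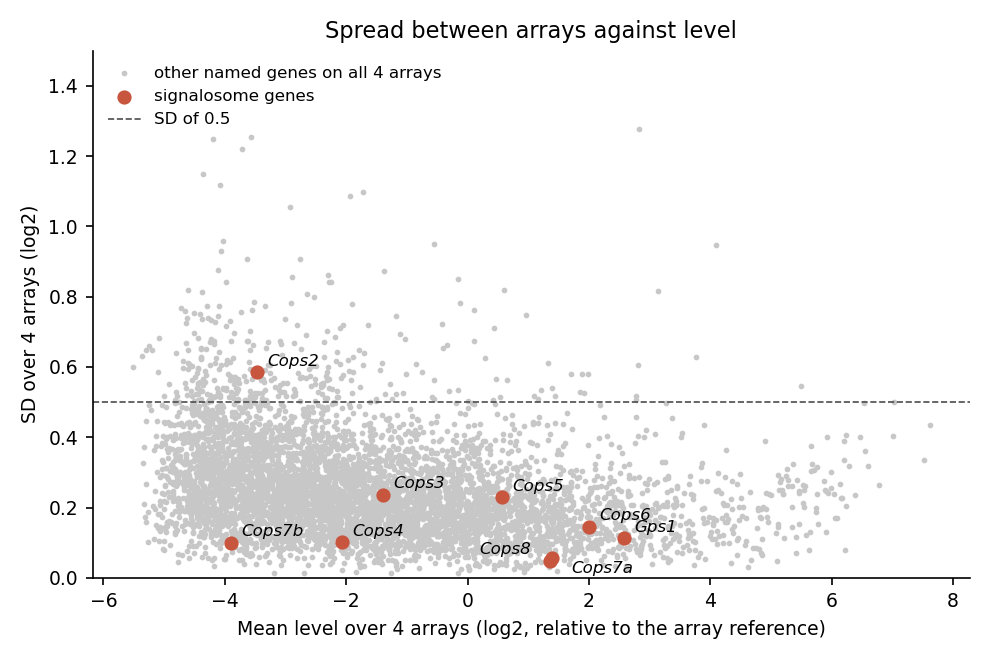
SD over the 4 arrays (log2) against mean level (log2, relative to the array reference) for the 5824 named genes detected on all arrays, with the 9 signalosome genes in red and a dashed line at an SD of 0.5. Cops2, which was chosen for its spread, is the only red point above the line.

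Genes were also ranked by their closeness to Cops2 over the arrays. Likeness was measured as the root mean square distance, over the 4 arrays, between the deviations of 2 genes from their own means. This distance counts the size of the deviations as well as their order. A gene of narrow spread therefore lies far from Cops2, which was chosen for its wide spread. A small share of near genes follows from that choice and is no finding. The median distance to Cops2 over 5823 genes was 0.53, and 2.32% of genes lay within 0.25. The nearest was the noncoding gene Gas5, host of small nucleolar RNAs, at a distance of 0.069. It was at −0.83, −1.81, −1.41 and −0.68 on replicates 1 to 4 over 10 spots. Next came Ssbp1, which encodes the mitochondrial single-stranded DNA binding protein, at 0.080, and the exonuclease gene Exo1 at 0.082. Ssbp1 and Exo1 each have another probe that was well above background on no array, that of Exo1 matched to the same transcript. The transcription factor subunit gene Taf9 lay at 0.11 and Tmx4, of the thioredoxin-related transmembrane proteins, at 0.11. Their shared order of the arrays follows from this choice and is no finding. With cyclic loess normalization 3 of the 5 were still among the nearest 5, and with normexp correction none was. Among signalosome genes the nearest was Cops5 at 0.40 and the farthest Cops6 at 0.63, on either side of the median of 0.53 over all genes.

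Genes that act with the signalosome, and those of related complexes, were partly detected. In 8 lists of both kinds, 70 of 78 were measured, of which 51 gave signal well above background in all 4 cultures, 10 in some of them and 9 in none, against 35.2% of all named genes in all 4. Of the 51, 5 had an SD above 0.5 (Cul1, Rnf7, Nub1, Jun and Cdkn1b), each at a single spot, against 5.6% of all detected genes. The other detected probes of Jun and Cdkn1b had SDs of 0.32 and 0.31, so this count depends on the probe taken. Nothing is read from it. The acidic ninth subunit gene Cops9 was at 1.62, 1.92, 1.81 and 1.77, a mean of 1.78 ± 0.12 (SD, n = 4), and like Gps1 and Cops4 it was lowest on replicate 1.

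NEDD8 attachment came first. Of 9 measured genes of this step 6 were detected on all arrays, and Dcun1d1, Dcun1d2 and Dcun1d4, of a family of NEDD8 ligases, on none. Nedd8 itself was at 3.32, 3.24, 3.46 and 3.60, a mean of 3.41 ± 0.16 (SD, n = 4). Ube2m, the enzyme that passes NEDD8 to most cullins, was at 1.58, 1.86, 1.72 and 1.48, a mean of 1.66 ± 0.16 (SD, n = 4). Uba3, the catalytic subunit of the NEDD8-activating enzyme, was wider, at −3.44, −4.57, −4.22 and −4.29, with an SD of 0.49.

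Of 8 measured genes of cullins, which the signalosome acts on, and of their RING partners, 3 were detected on all arrays. The share over all named genes was 35.2%, so nothing is read from this count. Cul1 was the only cullin among the 3. The other 5, the cullin genes Cul3, Cul4a, Cul4b, Cul5 and Cul9, were detected on some arrays, Cul3 on 3 of the 4. Cul1 was at −3.49, −4.63, −5.03 and −4.39, with an SD of 0.65 at 23.4 to 128 intensity units. The RING gene Rbx1, partner of most cullins, was steady at 1.26, 1.40, 1.38 and 1.41, and its relative Rnf7 was at −3.22, −2.21, −2.02 and −2.21. On replicate 1, Cul1 was thus at its highest and Rnf7 at its lowest.

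Among genes of NEDD8 removal and of cullin exchange, the spread differed widely. Cand1, which exchanges substrate receptors on cullins free of NEDD8, was at −0.76, −1.15, −0.94 and −0.92, a mean of −0.95 ± 0.16 (SD, n = 4). Nub1, which lowers the amount of NEDD8, had the widest spread of all the listed genes, at −2.0, −4.44, −2.50 and −2.77 with an SD of 1.06 at a single spot. Senp8, a NEDD8 protease apart from the signalosome, was not well above background on any array, nor were Cand2 and Glmn. Of 15 measured cullin adaptors and receptors 10 were detected on all arrays with SDs from 0.18 to 0.28, the highest that of Crbn.

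Related complexes are described beside the signalosome, with the scaling used here alone. The signalosome median of 0.11 moved to 0.18 with scaling to all probes, so no order of these medians is read. The proteasome lid and eIF3 have PCI and MPN subunits akin to those of the signalosome. All 9 measured lid genes were detected on all arrays, with a median SD of 0.18 and a highest of 0.34 for Psmd11. All 7 measured eIF3 genes were, with a median of 0.15 and a highest of 0.39 for Eif3e, whose 2 detected probes were both lowest on replicate 2. The 3 measured JAMM proteases outside these complexes had SDs from 0.26 to 0.35, the highest that of Brcc3. Of 11 measured genes whose proteins cullin ligases or Cops5 control, 9 were detected on all arrays. Cdkn1b, a cell cycle inhibitor that Cops5 exports from the nucleus, had an SD of 0.78, with −4.02 on replicate 1 against −2.72, −2.20 and −2.68. Its other detected probe went against this and was highest on replicate 1, with −2.71. Jun, a partner of Cops5, had an SD of 0.51 at its brighter probe and 0.32 at the other.

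**Figure D4:**
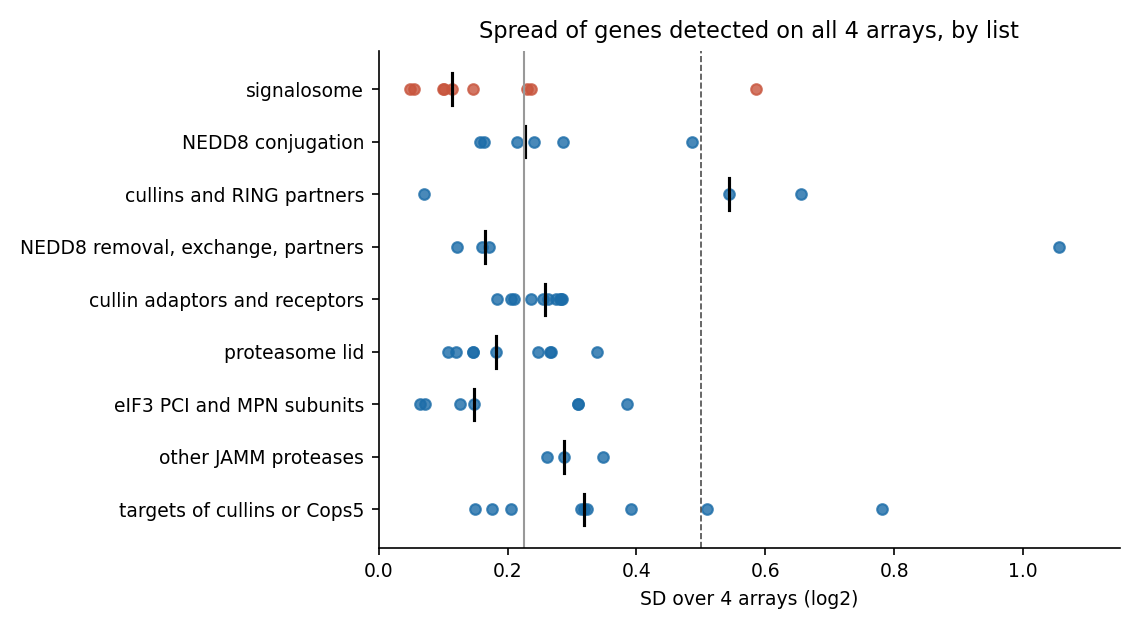
SD over the 4 arrays (log2) of each gene detected on all arrays, by list, with a black bar at the list's median, a grey line at the median of all detected genes (0.23) and a dashed line at 0.5. The signalosome (red) has 8 genes at or under 0.24 and Cops2 at 0.59; Nub1 is the point at 1.06.

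A test between arrays was possible only for probes printed at several spots. It used limma's moderated F with Benjamini-Hochberg adjustment over 1594 probes and took the spots of a probe as replicates within an array, so its p-values concern arrays and not cultures. Cops2 was the only signalosome gene among the 871 genes tested and, having been chosen for this difference, is given no p-value. Of 14 tested genes from the lists, 0 were called, that is, reached a limma adjusted p under 0.05 and a 2-fold range over the arrays, against 4.25% of all genes tested. All 14 had an unadjusted and an adjusted p under 0.05, as 84.6% of all genes tested did by adjusted p alone. The ranges were unequal and all under 2-fold, and nothing is read from a count of 0 among only 14 genes. Rbx1 had a limma adjusted p of 0.000658 with a 1.11-fold range, Cand1 4.16e-09 with 1.31-fold and Eif3e 1.77e-18 with 1.69-fold. The largest range was that of the cyclin gene Ccnd1, 1.86-fold (limma adjusted p = 1.25e-20). Over all genes tested 37 were called, 10 without replicate 1 and 21 without replicate 2.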

How the data were processed

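Total RNA of 4 exposed NR8383 cultures was labelled with Cy3 and hybridised to 4 arrays of 1 slide. The deposited files hold spot intensity from Agilent Feature Extraction 11.0.1.1 (array design 074036, per the file headers and the submitters' processing notes). The authors' processed intensity has the background subtracted and a spatial trend removed, array by array, with no normalization between arrays. The deposited files also give unsubtracted intensity and other spot columns, flags of 0 or 1.

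Control spots, and outlier spots (486 to 723 per array), were left out. Log2 processed intensity was averaged over the spots of a probe and set against the array's 75th percentile over the 22.9% of probes detected on all arrays. A probe was detected where over 50% of its spots were well above background. Of 45598 probes, 21109 matched a RefSeq accession of GRCr8 without version. A gene's level is that of its brightest detected probe. Promoters came from RefSeq (GRCr8). The test between arrays used limma 3.58.1 (R 4.3.3). On data simulated for this test over 1594 probes it found 99 of 100 probes given a log2 change of 1.5, 100 of 100 given a change of 2, and 0 of 1394 given none. The simulated error was that between spots of an array alone, without the differences between arrays seen in the data. The 0 of 1394 therefore gives no rate of false calls for these arrays. Other steps ran in Python 3.11.15 with pandas 2.3.3 and numpy 2.4.6, and figures in matplotlib 3.10.9. The precision is limited by 4 arrays.

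Named genes were the members, the listed genes with SD above 0.5 or else the widest of a list, a few fixed NEDD8 genes and the 5 genes nearest to Cops2. Genes not detected and Ccnd1 fall outside this rule and were named after their values were seen. Members and lists were chosen with earlier results of these data known. Alternatives were other scalings, quantile and cyclic loess normalization, normexp with an offset of 50 (on the median signal, since mean signal was not used here), other detection rules and probe rules, outlier spots kept, other limits, and each replicate left out.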

Additional observations from a re-analysis of the deposited data

Results flagged for a closer look

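In 2 of the 29 named genes with a level, 1 array lay far from the other 3, with a gap above Dixon's critical share of the whole range for 4 samples. Chance flags about 1 in 20 groups, a rate that does not hold here, since many of these genes were named for their spread over the same arrays. The RING gene Rnf7 was at −3.22 on replicate 1, with a gap of 0.840 of its range, and the RING gene Rbx1 was at 1.26 on replicate 1, with a gap of 0.831. The range of Rbx1 was small, and its other detected probe was lowest on replicate 2, at −0.90. None of the 9 signalosome genes was so marked, Cops5 coming nearest with a gap of 0.658.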

How the results depend on the processing

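All 9 signalosome genes were detected on all arrays under each detection rule and with each replicate left out, and 51 to 61 of the listed pathway genes were. The median SD of the 9 genes was 0.114, 0.178 with scaling to all probes, and 0.0747 to 0.133 with a replicate left out. The count above an SD of 0.5 was 1, 0 after normexp correction, and 0 to 1 with a replicate left out. The gap between arrays in the median deviation of the 9 from their own means was 0.0533, 0.236 with scaling to all probes and 0.179 with scaling to the median, where the median of all genes moved by up to 0.12 between arrays (0.17 after normexp). The limma test between arrays called 37 genes, 224 at 1.5-fold, 737 at any fold, 19 under normexp, 369 with dim probes let in, and 10 to 35 with a replicate left out. Of the 5 genes nearest to Cops2, 3 were among the nearest with cyclic loess and 0 with normexp. The cause of these moves was not tested. Replicate 2 was the lowest array for Cops2 under every setting run on all 4 arrays; Cops2 with each spot alone was added after seeing the data. Signal over background limits the second probes of Cops2 and Cops7b. The slide as a block could not be fitted, since all arrays lay on 1 slide. No paired analysis was possible because there was 1 group.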
